A study of Paralichthys olivaceus with 6 samples.

Results

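Core histones are the proteins around which DNA is wound, and 6 unigenes, or assembled transcripts, counted in flounder gonads were matched to one. They were found by their histone matches on the study's own list of 1225 differentially expressed unigenes, the only ones of the 52474 counted that could be searched by name. A nucleosome holds H2A, H2B, H3 and H4, and the linker histone H1 sits on the DNA between nucleosomes. Most core histone genes are transcribed while DNA replicates and give short mRNAs that end in a stem-loop in place of a poly(A) tail, while variant histone genes give polyadenylated mRNAs. Oocytes store histones and histone mRNA for the early embryo, as is known from frogs.

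Gonads of double haploid (DH) female Japanese flounder, 3 fertile and 3 sterile, had been sequenced with 1 library per fish. In DH fish both copies of every gene are alike. The fish were 5 years old and all descended from 1 wild mother. Fertile fish had produced viable progeny and their ovaries are labelled stage V, whereas sterile fish gave no eggs and their ovaries are labelled stage III, so that fertility and ovarian stage cannot be told apart. The methods speak of pooled RNA but also of gonads taken from each female, and each library was read here as 1 fish. The histone matches were to mouse genes, with 1 unigene for H2A, 3 for H2B and 2 for H4. None was matched to H3. The names of unigenes higher in fertile gonads were held in part, so a core histone named only in the missing part could not be found. Because the study's list was selected by comparing these same fertile and sterile fish for a fold change above 2, the difference between the groups is given below as a description, without a test. Core histone unigenes outside the list carry no name and were not analysed here.

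The H2A unigene is c13714_g2_i1_409_11745 (mouse match Hist1h2ak). The H2B unigenes are Contig20428 and c17703_g1_i2_588_22990, which share the zebrafish symbol zgc:173585, and Contig27058 (LOC564549), all matched to mouse Hist2h2bb. The H4 unigenes are Contig15708 (Hist2h4) and Contig24031 (Hist1h4i). None of the 6 was found by symbol or accession in the RefSeq gene table of the flounder (0 matched), so their chromosomal positions and sequences are not given here.

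Total counts ranged from 25024469 to 35719683 per library. Levels are given as CPM, the count per 1000000 counts of the library, and the intervals of levels are exact 95% Poisson intervals. These, and the Wilson intervals of shares further on, cover counting error only, treat reads as separate molecules and say nothing of the spread between fish. Libraries F1, F2, F3 and S1 carry sample numbers of the labels. The remaining 2, S4 and S5, are numbered unlike any sample in the labels and their headers end differently from the other 4. The letter S places them with the sterile fish. The paper's clean reads rank its sterile samples S2 and S3 highest, where total counts rank S4 and S5 here. The other 4 samples follow in the same order in both. Read totals thus match S4 to S2 and S5 to S3, though no label states it. Because the headers differ, fold changes of the core histone unigenes are also given with S1 as the only sterile library. Its spread is then assumed to be that of the fertile fish.

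Summed over the 6 unigenes, core histone counts made up a small part of each library, and the level was highest in S4 and S5. The summed level was 272.6 CPM in F1, 189.7 CPM in F2 and 178.9 CPM in F3. It was 318.1 CPM in S1, 740.7 CPM in S4 and 439.5 CPM in S5. Every sterile library was above every fertile library, but S1 was much nearer to F1 than to S4. The fertile mean was 213.7 ± 51.3 CPM and the sterile mean was 499.4 ± 217.5 CPM (SD, n = 3 in each group), a ratio of 2.34. Against the fertile mean, S1 was 1.49 times as high, S4 was 3.47 times and S5 was 2.06 times. In bulk gonads, more cells that make histone mRNA and more of it per cell cannot be told apart.

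**Figure D1:**
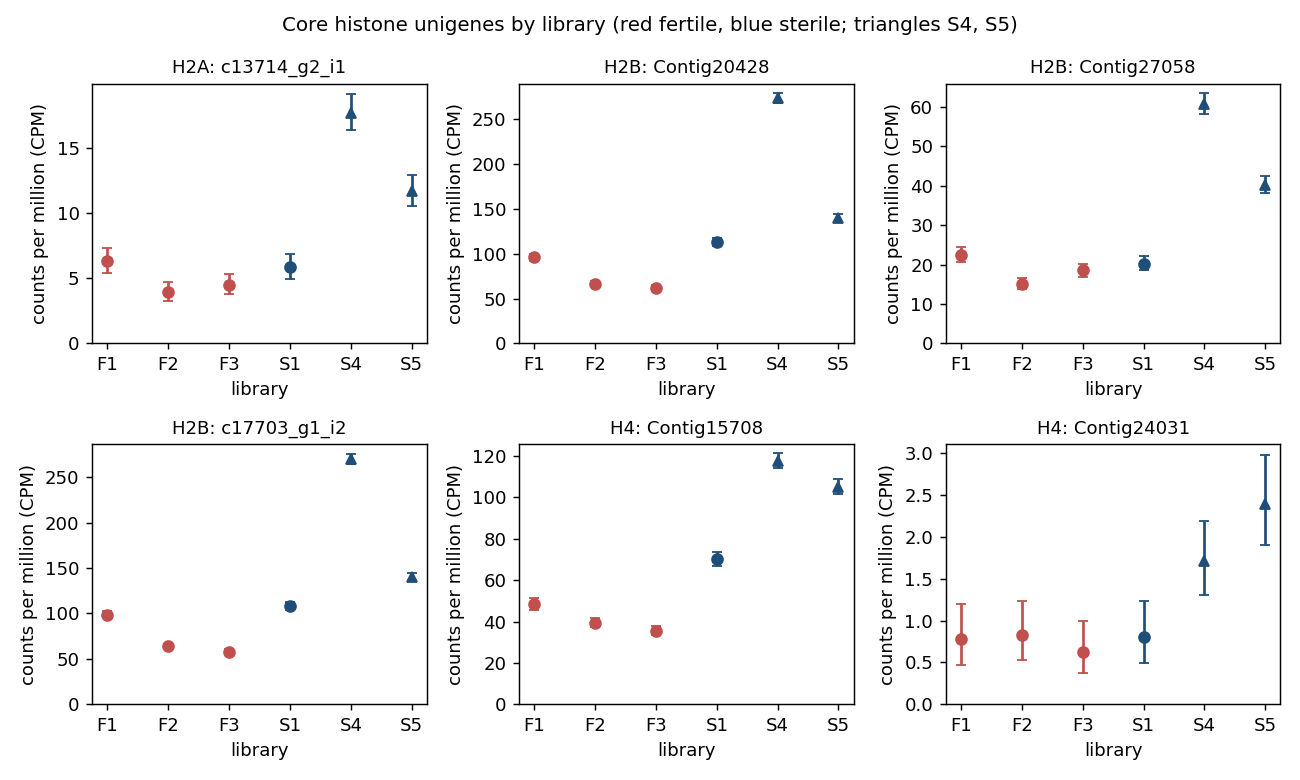
Level of each core histone unigene (y axis, CPM) in the 6 libraries (x axis), with red points for fertile and blue points for sterile fish, triangles for S4 and S5, and bars for the exact 95% Poisson interval of the count. S4 and S5 are the 2 highest libraries in all 6 panels, and S1 lies within the fertile range in 3 of them.

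H2A pairs with H2B in the dimers at the outer faces of the nucleosome. The H2A unigene had 163, 115 and 129 counts in F1, F2 and F3, or 6.31, 3.96 and 4.51 CPM. It had 147 counts in S1 (5.87 CPM), 633 in S4 (17.7 CPM) and 396 in S5 (11.7 CPM). S1 lay inside the fertile range, below F1, so the groups overlapped. S4 and S5 were 3.02 and 1.99 times as high as S1. The log2 fold change of fertile over sterile gonads was -1.39 (standard error 0.37) from edgeR's quasi-likelihood fit, and -0.29 (standard error 0.27) with S1 as the only sterile library.

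The H2B unigenes held most of the core histone counts. Contig20428 had 96.1, 66.4 and 61.8 CPM in F1, F2 and F3. It had 112.9 CPM in S1, 273.0 CPM in S4 and 139.7 CPM in S5. Its groups did not overlap, and S4 was 1.95 times as high as S5, which was itself 1.24 times as high as S1. The other zgc:173585 unigene, c17703_g1_i2_588_22990, had 98.6, 63.8 and 58.0 CPM in the fertile libraries. It had 108.0 CPM in S1, 269.8 CPM in S4 and 140.4 CPM in S5. Both members of the pair thus placed the 6 libraries in the same order. Their log2 fold changes were -1.35 (standard error 0.31) for Contig20428 and -1.35 (standard error 0.33) for c17703_g1_i2_588_22990. With S1 as the only sterile library these were -0.63 (standard error 0.22) and -0.59 (standard error 0.27).

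The zgc:173585 pair divided its counts evenly. Contig20428 took between 49.4% of the pair's counts in F1 and 51.6% in F3. The 95% Wilson interval of this share included 50% in 6 of 6 libraries, for example 49.6% to 51.0% of 19390 counts in S4. The 2 unigenes thus gave almost the same measurement, and the treatment of reads that match both is not known. They are counted below as 2 of the 6 unigenes, as the study lists them, and the counts and sums that include them are also given with the pair averaged and counted once, an alternative added after seeing the data. Counted once, the sterile mean of the summed core histones was 2.33 times the fertile mean.

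Contig27058, the third H2B unigene, had 22.4, 15.1 and 18.5 CPM in F1, F2 and F3. It had 20.2 CPM in S1, 60.7 CPM in S4 and 40.1 CPM in S5. Unlike the zgc:173585 pair, it placed S1 within the fertile range, and its order of libraries was that of the H2A unigene. S4 was 1.51 times as high as S5, as for H2A (1.51 times), and S5 was 1.98 times as high as S1, against 1.99 times for H2A. Of the counts of H2A and Contig27058 together, H2A took 22.5% in S1, 22.6% in S4 and 22.6% in S5, and from 19.6% in F3 to 22.0% in F1 among the fertile libraries, with overlapping Wilson intervals (16.8% to 22.8% in F3 and 21.1% to 24.2% in S4). This pair was picked out after its values were seen. The log2 fold change of Contig27058 was -1.24 (standard error 0.35), the smallest of the 6 in this fit. It was -0.15 (standard error 0.20) with S1 alone. The list's 2-fold limit was set on the study's own fold changes, which were not used here, so the unigene nearest to it is not known. Unigenes below the 2-fold limit carry no name, so no core histone just outside it can be given.

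H4 forms the central tetramer of the nucleosome with H3. Contig15708 had 1250, 1148 and 1014 counts in F1, F2 and F3, or 48.4, 39.5 and 35.5 CPM. It had 1760 counts in S1 (70.3 CPM), 4203 in S4 (117.7 CPM) and 3564 in S5 (105.3 CPM). Here S1 stood clear of the fertile libraries, at 1.71 times their mean, and S4 and S5 were close to each other. It was the core histone unigene with the least spread among the sterile fish, with a coefficient of variation of 25.1% against 48.9% to 50.4% for the other 5. Its log2 fold change was -1.37 (standard error 0.21), and it was the largest of the 6 with S1 as the only sterile library, at -0.81 (standard error 0.16).

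Contig24031, the second H4 unigene, was counted far less often. It had 20, 24 and 18 counts in F1, F2 and F3, or 0.775, 0.826 and 0.629 CPM. It had 20 counts in S1 (0.799 CPM), 61 in S4 (1.71 CPM) and 81 in S5 (2.39 CPM). S1 lay within the fertile range, and this was the only core histone unigene with a higher level in S5 than in S4, although the intervals of the 2 libraries overlapped (1.31 to 2.19 CPM in S4 and 1.90 to 2.97 CPM in S5). Its log2 fold change was -1.28 (standard error 0.40), and -0.14 (standard error 0.38) with S1 alone.

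**Figure D2:**
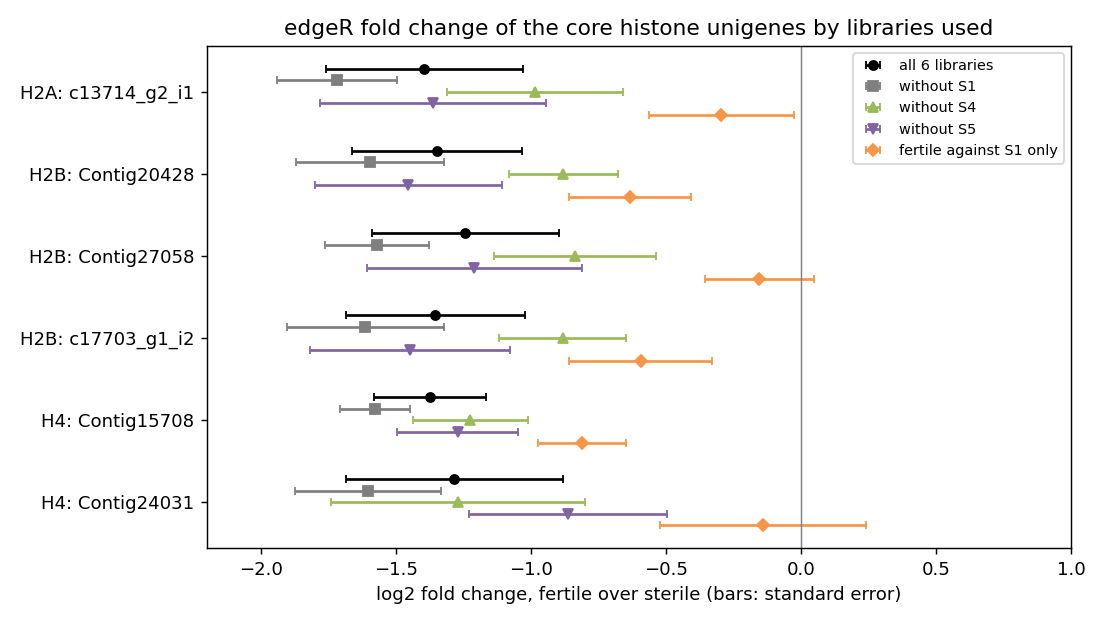
Log2 fold change of fertile over sterile gonads (x axis) for each core histone unigene (y axis) from edgeR's quasi-likelihood fit, with bars for the standard error and symbols for the libraries used. With all 6 libraries the values lie between -1.39 and -1.24, and with S1 as the only sterile library they lie between -0.81 and -0.14.

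The 6 unigenes were therefore alike in fold change and in having S4 and S5 highest. They were unlike in S1, which lay within the fertile range for 3 of them. S4 and S5 are also the 2 libraries with the other header ending, so this order and that ending cannot be told apart. Over all unigenes compared, chi-square per degree of freedom between libraries, which grows with depth, was 12.6 to 24.2 for S1 against fertile libraries. It was 27.7 to 39.6 for S4 and 56.6 to 61.5 for S5. A sterile S1 nearer to the fertile fish is thus not particular to the core histones. The list's 2-fold limit and the near-equal zgc:173585 pair add to the likeness in fold change. The log2 fold changes of the 6 ran from -1.39 to -1.24 with a median of -1.35. The median over the 35787 tested unigenes was -0.01. All 6 passed the filter on low counts, and the lowest count of any in a library was 18. Calls required more than a 2-fold change and an adjusted p below 0.05. By edgeR's quasi-likelihood test 0 of the 6 were called, where 0.0559% of all tested unigenes were called higher in sterile gonads. With the unadjusted p in place of the adjusted one it was 6 of 6 (1.87% of all in that direction). DESeq2 called 1 (0.464% of all), edgeR's exact test called 5 (0.889% of all) and limma-voom called 0 (0.0279% of all). The unigene called by DESeq2 was Contig15708, and the one that the exact test did not call was Contig24031. Nothing is read from these counts, since the study selected the 6 on this contrast. The CPM of the groups did not overlap in 3 of the 6, where 5.36% of all tested unigenes had every sterile library above every fertile one. After TMM normalization, a setting added after seeing the data, it was again 3 of the 6, and 11.2% of all. With the zgc:173585 pair counted once, the CPM of the groups did not overlap in 2 of 5. S4 and S5 were the 2 highest libraries in 6 of 6, against 4.92% of all tested unigenes. Both were more than 2 times as high as S1 for 1 of 6, Contig24031, against 0.992% of all. The study's selection on this contrast favours sterile libraries above fertile ones, so nothing is read from these counts of library order either. Among the fertile fish, F1 was the highest for 5 of 6, and the share of all tested unigenes with F1 leading was not counted. With the pair counted once, S4 and S5 were highest in 5 of 5, F1 led the fertile fish in 4 of 5 and the median log2 fold change was again -1.35. Without S1 the median log2 fold change was -1.60 and 2 unigenes were called, Contig27058 and Contig15708, where 0.0984% of all unigenes tested in that fit were called higher in sterile gonads. The median was -0.93 without S4, with 0 called, where 0.0537% of all unigenes tested in that fit were called higher in sterile gonads. It was -0.44 with S1 as the only sterile library.

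The spread within the groups was also larger than the trend for unigenes of like abundance. The biological coefficient of variation, which is the spread between fish beyond counting error as edgeR estimates it, was 0.307 for H2A, 0.269, 0.296 and 0.283 for Contig20428, Contig27058 and c17703_g1_i2_588_22990, 0.186 for Contig15708 and 0.315 for Contig24031. The trend over all tested unigenes at the same abundance was 0.148 for H2A, between 0.120 and 0.133 for the H2B unigenes, 0.123 for Contig15708 and 0.211 for Contig24031. Each of the 6 lay above it, the near-equal zgc:173585 pair included. How many of all tested unigenes lie above their own trend was not counted, so nothing particular to the core histones is read from this.

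The balance of summed H2B against H4, where H2B is mostly the zgc:173585 pair, differed most between S4 and S5. These shares are not per transcript length, so they are compared between libraries and not between unigenes. H2B took 79.6%, 76.6% and 77.3% of the core histone counts in F1, F2 and F3 and 75.8% in S1. It took 81.5% in S4 (95% Wilson interval 81.0% to 82.0%) and 72.8% in S5 (72.1% to 73.5%), the highest and the lowest share of the 6 libraries. Each is 1 fish, and the spread between fish was not tested. For H4 the order of S4 and S5 was the reverse, with 16.1% in S4, 24.5% in S5, 22.4% in S1 and 18.0% to 21.3% in the fertile libraries. There were 5.06 H2B counts per H4 count in S4, 2.97 in S5, 3.39 in S1 and from 3.60 to 4.41 in the fertile libraries, so the fertile range lay between the values of S4 and those of S1 and S5. With the zgc:173585 pair counted once, H2B per H4 was 2.78 in S4 and 1.67 in S5, again the highest and the lowest of the 6 libraries. Contig27058 took only 8.39% (S1) to 13.4% (F3) of the H2B counts, so these values mostly follow the pair. Contig27058 alone did not put S4 and S5 at the ends. Beside Contig15708 it had 529 against 1014 counts in F3 and 2169 against 4203 in S4. In S1 it had 506 against 1760 and in S5 1358 against 3564. H2A was a small share throughout, with its extremes in S1 and S5 and not in S4. It took 1.85% in S1, 2.39% in S4, 2.66% in S5 and 2.09% to 2.52% in the fertile libraries, and H2B per H2A count was highest in S1 at 41.0 and lowest in S5 at 27.4, with 34.1 in S4. The excess of S4 over S5 in the summed level lay mostly in H2B, at 603.6 against 320.2 CPM, whereas H4 was at 119.4 against 107.7 CPM. Within H2B it lay mostly in the zgc:173585 pair, since Contig27058 was at 60.7 against 40.1 CPM.

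**Figure D3:**
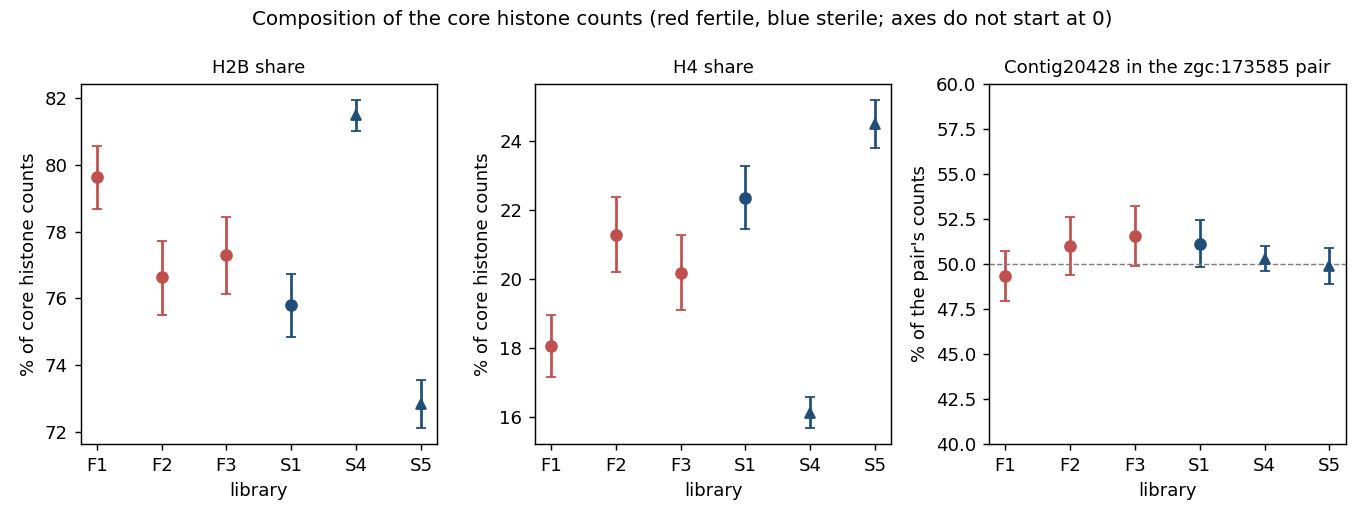
Share of H2B and of H4 in the core histone counts and share of Contig20428 in the counts of the zgc:173585 pair (y axes, %) in the 6 libraries (x axis), with red points for fertile and blue points for sterile fish and bars for the 95% Wilson interval. S4 and S5 lie at opposite ends for H2B (81.5% and 72.8%) and for H4, and the pair stays near 50% in every library.

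Linker histone H1 was also highest in S4 and S5. Contig19899, matched to mouse Hist1h1d and on the same list of the study, had 2.17, 1.34 and 1.68 CPM in F1, F2 and F3. It had 2.20 CPM in S1, 4.79 CPM in S4 and 3.63 CPM in S5, so that S1 was level with F1 and S4 and S5 were highest. Its log2 fold change was -1.17 (standard error 0.31). To find the unigenes most like the core histones, profiles of log2(CPM + 1) were centred on each unigene's mean over the 6 libraries and set against the mean profile of the 6, with the root mean square difference as the measure. Contig19899 was the nearest unigene with a symbol, at 0.19 on the log2 scale and position 2 among 35781, where the members themselves lay between 0.10 and 0.36 and the median of all others was 0.67. The next were rn7sk (0.22), the pancreatic elastase gene ela2 (Contig19244, 0.23), ace (0.31), which encodes angiotensin-converting enzyme, and a second ela2 unigene (Contig10079, 0.32). Symbols are carried only by the study's list, which was selected on the same contrast as the core histones, so near named unigenes follow in part from that selection. Of the 35781, 69 lay nearer than the farthest member, of which 35 were on the list and 12 had a symbol. The choice of named unigenes changed with the constant added. With 0.1 in place of 1, Contig19899 was again nearest among those with a symbol and 2 of the 5 were kept, itself and ace, and with 5 added it was at position 33 and 0 of the 5 were kept. The study's nucleosome assembly term holds Contig19899 and 5 of the core histone unigenes, all but Contig24031.

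None of the unigenes for enzymes that act on histones was highest in S4 or S5. The study's list holds 5 of them, all tested, and edgeR's quasi-likelihood test called 0 (5 at an unadjusted p below 0.05). As the study selected these and all further lists on the same contrast, such full counts follow from that selection. Over all tested unigenes, 1.87% reached the unadjusted p with a 2-fold change higher in sterile and 1.09% higher in fertile gonads, and 0.0559% and 0.0810% were called. The deubiquitinase gene usp16, whose protein removes ubiquitin from histone H2A in mammals, had 25.8, 12.2 and 16.6 CPM in F1, F2 and F3. It had 38.6 CPM in S1, 33.7 CPM in S4 and 29.8 CPM in S5, the only one of the 5 that was higher in the sterile libraries, with its highest level in S1 and not in S4. The demethylase genes kdm2aa (2 unigenes) and kdm5bb and the methyltransferase gene kmt2a had positive log2 fold changes, from 1.20 for kdm5bb to 1.75 for the kdm2aa unigene c16674_g3_i1_974_12324. That unigene had 1.70, 0.964 and 1.64 CPM in F1, F2 and F3 and 0.799, 0.280 and 0.177 CPM in S1, S4 and S5. Kmt2a had 0.387 to 0.517 CPM in fertile and 0.120 to 0.168 CPM in sterile libraries. For these 4 unigenes every fertile library was above every sterile one. Nothing is read from this, since the study selected them on this contrast, and the share of all unigenes with that order is not given here. Genes of DNA replication and the cell cycle, with which core histone mRNA normally rises and falls, could not be set beside them, since 0 of the 16 searched symbols were on the list that carries the names.

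RNAs that have no poly(A) tail were also at their highest levels in S4 and S5. The kit named for these libraries commonly selects RNA by its poly(A) tail, and rn7sk and rpph1, the RNA of the 7SK particle and of ribonuclease P, have none. The 7SK unigene was counted 5, 5 and 6 times in the fertile libraries, 19 times in S1, 59 times in S4 and 47 times in S5. Its log2 fold change was -2.84 (standard error 0.40), and it was called higher in sterile gonads in edgeR's quasi-likelihood test. The rpph1 unigene was counted 5, 28 and 18 times in the fertile libraries, 78 times in S1, 221 times in S4 and 347 times in S5, with a log2 fold change of -3.56 (standard error 0.56), and was not called. In the comparison of profiles, with 1 added to the CPM, rn7sk lay at 0.22 from the core histones. The added 1 is large beside its 0.172 to 0.210 CPM in the fertile libraries and shrinks its differences. With 0.1 or 5 added it was not among the 5 nearest with a symbol. The rpph1 unigene lay at 0.75 with 1 added, farther than the median of all others (0.67). Against the fertile mean, the CPM of the pair was 4.92 times as high in S1, where the summed core histones were 1.49 times as high, and 9.95 times in S4 and 14.8 times in S5. Their part in the histone result was not tested.

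Markers of other cell types were set beside the histones, all from the study's list and so selected on the same fish. The erythrocyte globin gene ba1l had 5, 7 and 0 counts in F1, F2 and F3, 3 in S1, 262 in S4 and 110 in S5, which put S4 first and S5 second as for the summed core histones. The 4 unigenes of exocrine pancreas summed to 0.654 to 1.78 CPM in the fertile libraries, 2.96 CPM in S1, 8.48 CPM in S4 and 11.7 CPM in S5. Of these, 3 were tested, 0 were called by edgeR's quasi-likelihood test (3 at an unadjusted p under 0.05) and the median log2 fold change was -2.63. Over all tested unigenes 0.0559% were called higher in sterile gonads, and 1.87% with the unadjusted p. The leading one, the carboxypeptidase unigene with the symbol cpa4, was at 0 counts in F3 and had 261 counts in S5. The part of blood and pancreas in the histone levels was not tested.

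Leukocyte markers did not put S4 first. The 14 unigenes summed to 14.5 to 19.4 CPM in the fertile libraries, 22.9 CPM in S1, 17.4 CPM in S4 and 29.9 CPM in S5, so S4, with the most core histone counts, lay within the fertile range. Of the 12 tested, 9 had negative log2 fold changes and the median was -1.23. By edgeR's quasi-likelihood test 1 was called higher in fertile gonads, against 0.081% of all tested unigenes. The 3 with positive values were unigenes of mpx, a myeloperoxidase gene. Without them, a choice made after seeing the data, the sum was 6.37 to 10.7 CPM in the fertile libraries, 21.5 CPM in S1, 16.5 CPM in S4 and 29.1 CPM in S5. The unigene with the most counts, itgb2, encodes the shared beta chain of leukocyte integrins and had 3.49, 2.20 and 2.87 CPM in F1, F2 and F3, 7.87 CPM in S1, 6.16 CPM in S4 and 11.8 CPM in S5. None of the leukocyte markers was at 0 counts in any library. The part of leukocytes in the histone levels was not tested.

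**Figure D4:**
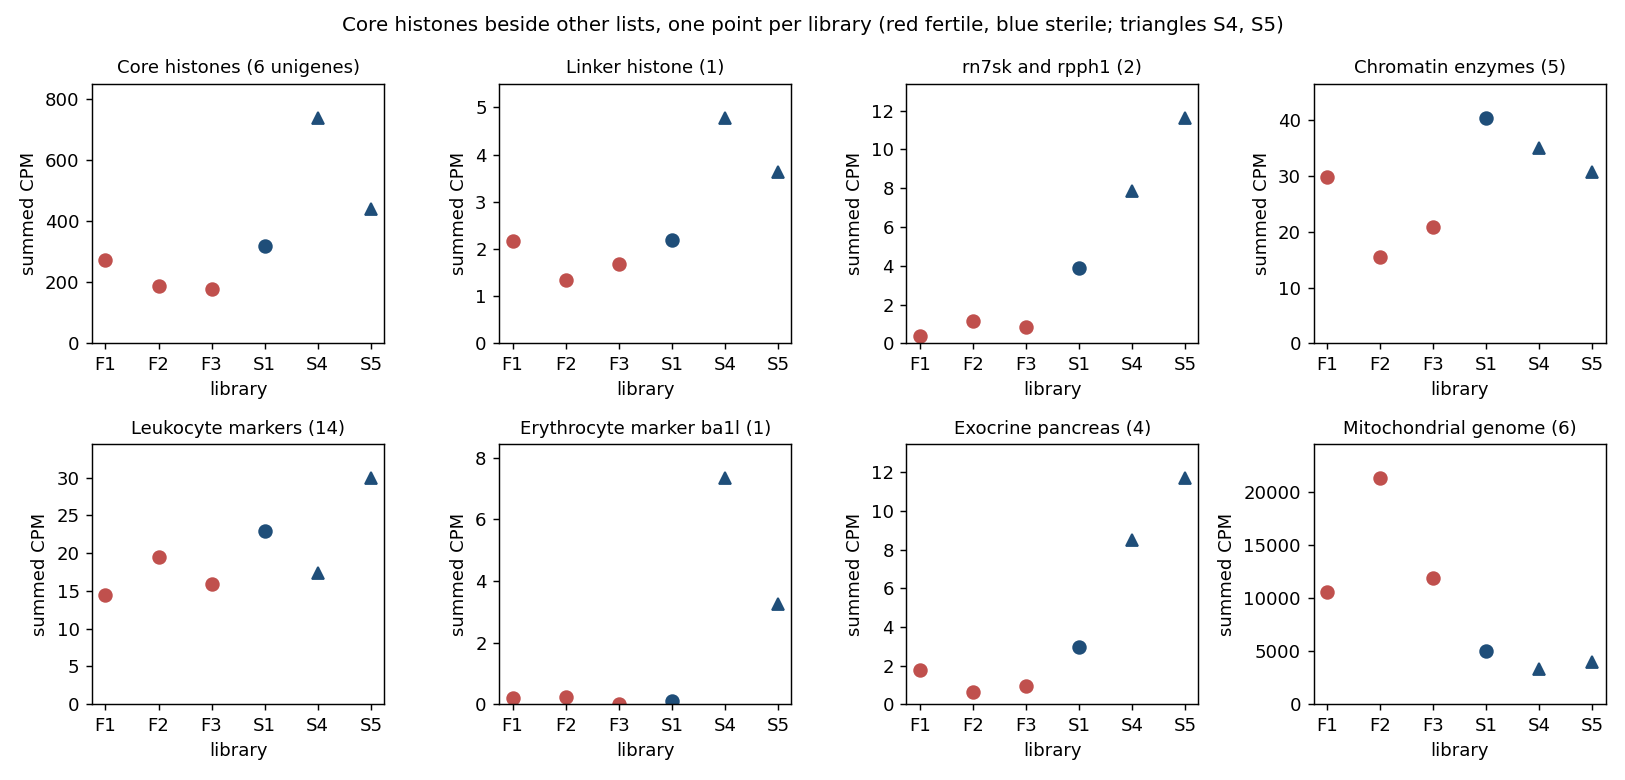
Summed level of the core histone unigenes and of 7 other lists (y axes, CPM) in the 6 libraries (x axis), with red points for fertile and blue points for sterile fish and triangles for S4 and S5. S4 is highest for the core histones (740.7 CPM), the linker histone and ba1l, S5 for the pancreas enzymes, for rn7sk with rpph1 and for the leukocyte markers, and S1 for the chromatin enzymes. The chromatin enzyme sum is mostly usp16 (38.6 of 40.5 CPM in S1). The other unigenes of that list were higher in the fertile libraries.

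Other lists on the same fish ran as follows. The meiotic germ cell genes spo11 and sycp3 together had 0.769 to 1.10 CPM in fertile and 0.236 to 0.280 CPM in sterile libraries. Sycp3, a protein of the chromosome axis in meiosis, was at 3 counts in S1, 4 in S4 and 7 in S5. The 10 unigenes of steroidogenic and granulosa cells, which form the wall of the ovarian follicle, summed to 29.7 to 51.5 CPM in fertile and 9.52 to 14.9 CPM in sterile libraries, and 3 of the 7 tested were called higher in fertile gonads by edgeR's quasi-likelihood test, against 0.0810% of all. Their leading unigene nr5a1b, which encodes steroidogenic factor 1, was present in all 6 libraries, from 4.28 CPM in S4 to 22.1 CPM in F2. The 5 muscle unigenes, led by ryr3, summed to 1.10 to 1.96 CPM in fertile and 3.05 to 4.64 CPM in sterile libraries, highest in S1. Of 6 mitochondrial and 7 ribosomal or translation unigenes only 1 of each list passed the filter on low counts, and neither was called. The mitochondrial COX1 unigene had 10523, 21273 and 11924 CPM in F1, F2 and F3 and 5048, 3347 and 3962 CPM in S1, S4 and S5. The ribosomal protein unigene rpl38 had 43.5, 95.4 and 74.5 CPM in F1, F2 and F3 and 210.0, 192.1 and 127.1 CPM in S1, S4 and S5. For both, S1 lay with the other sterile libraries, which was not so for H2A, Contig27058 and Contig24031.

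The lupus pathway, under which the study lists all 6 core histone unigenes, also holds 9 unigenes of complement and MHC class II. These summed to 52.7 to 83.4 CPM in the fertile libraries, 172.9 CPM in S1, 98.7 CPM in S4 and 222.0 CPM in S5. Of the 8 tested, 0 were called by edgeR's quasi-likelihood test (8 at an unadjusted p under 0.05, against 1.87% of all, a count that the study's selection fixes), and the median log2 fold change was -1.45. Their leading unigene, with the symbol si:busm1-48c11.3 and matched to an MHC class II alpha chain of mouse, had 18.3 CPM in S4, 36.2 CPM in S1 and 45.1 CPM in S5. S4 was the lowest sterile library for their sum and the highest for 5 of the 6 core histone unigenes, so these 9 and the core histones placed the sterile fish in different orders.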

How the data were processed

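Gonads of 3 fertile and 3 sterile fish were analyzed. Reads were quality-filtered by the authors and assembled with Trinity, CAP3 joined contigs into unigenes, tBlastx matches gave names, BWA mapped the reads, and the authors deposited raw counts per unigene, without normalization. The paper counts with Picard, whereas HTSeq stands beside BWA 0.7.8-r455 in the notes of the submitters. Whether strand was used and how reads with several matches were treated is not stated there, so near-identical unigenes can divide or share reads. The unigene names are the study's matches, and the names for unigenes higher in fertile gonads were held in part.

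Depth was 25024469 to 35719683 counts per library, and no 2 libraries were alike within sampling noise. Levels are counts over the library total, scaled to CPM. Counts were fitted in R 4.3.3 with edgeR 4.0.16 (filterByExpr, TMM factors of 0.913 to 1.05, glmQLFit, glmQLFTest, Benjamini-Hochberg adjustment), which left 35787 unigenes, with the authors' thresholds of an adjusted p under 0.05 and a fold above 2. TMM moves fold changes away from ratios of CPM. Standard errors are the log2 fold change over the square root of F. The fit was tested on simulated data. P-values set the difference between the groups against the estimated spread between libraries of a group. The alternatives were 19 fits and thresholds, among them DESeq2 1.42.0 and limma 3.58.1, and 5 for sums and profiles. Intervals used scipy 1.17.1. Members, lists and tests were chosen with earlier results of these data known. The named genes are the members, the linker histone, RNAs without poly(A) tail, chromatin enzymes, the leading unigene of each other list and the 5 nearest profiles with a symbol. No column was left unused. Fold changes and p-values of the study were not used.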

Additional observations from a re-analysis of the deposited data

How the results depend on the processing

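The median log2 fold change of the 6 core histone unigenes was -1.35 and stayed negative in every alternative fit, from -1.60 without S1 to -0.44 with S1 as the only sterile library. It lay between -1.60 and -0.93 over the fits that left out 1 library. The study selected the 6 on this contrast in these same fish, so the lasting negative sign follows in part from that selection. The log2 ratio of the summed CPM, -1.22, was -0.57 against S1 alone and between -1.47 and -0.83 with 1 library left out. The number of unigenes called, 0, was 1 without a low-count filter (0.0617% of all tested unigenes called higher in sterile gonads), 1 with library totals only (0.0754%), 1 with DESeq2 (0.464%), 1 at an adjusted p under 0.1 (0.159%), 5 with edgeR's exact test (0.889%), 6 at an unadjusted p under 0.05 (1.87%), and between 0 and 2 with 1 library left out (0.0432% to 0.117%). Scaling by library totals alone moved the median log2 fold change of all tested unigenes from -0.01 to 0.10 and the calls from 29 (fertile higher) and 20 (sterile higher) to 71 and 27. Over all unigenes DESeq2 called 295, the exact test 532, limma-voom 24, and 97 were called without F1. Of the 5 nearest named profiles, 2 remained with log2(CPM + 0.1) and 0 with log2(CPM + 5). A constant that is large beside the CPM of a unigene shrinks its differences between libraries on the log2 scale. The part of this in each change was not tested. No paired analysis was possible because S4 and S5 carry no replicate number of the labels. The paper also describes no pairing of fertile with sterile fish, so equal replicate numbers in the labels need not mean matched fish. A count of 20 or so, as for Contig24031, limits its precision.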
